A study of Xenopus tropicalis with 4 samples.

Results

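The genes described here encode components of the Wnt, BMP, FGF, Notch and Hedgehog signalling pathways of Xenopus tropicalis. They were taken as the gene identifiers whose name, in the gene lists published with the study, begins with a stem of these gene families (wnt, fzd, bmp, smad, fgf, notch, hes, gli and the like). This gave 69 genes out of 34178 gene identifiers counted, and out of 6622 that carry a name. By pathway there were 18 Wnt, 16 BMP, 11 FGF, 16 Notch and 4 Hedgehog genes. The other 4 (fgfr1op, fgfr1op2, ptchd3 and spryd3) match the stems by their letters only, and are kept apart below as genes outside the pathways.

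RNA-seq was performed on animal caps (ACs), explants of the blastula's prospective ectoderm that form an epidermis in culture, at NF16 (neurula stage). The comparison asks how gene expression in this tissue differs after depletion of the H4K20 methyltransferases SUV4-20H1 and SUV4-20H2. Embryos had been injected with a control morpholino (CoMo, 2 libraries) or with morpholinos against both suv4-20h transcripts (H1H2Mo, 2 libraries). Injection was radial, and the CoMo caps are thus injected controls and not untreated tissue.

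Signalling by these pathways shapes the embryonic ectoderm. Wnt ligands bind Frizzled receptors and stabilize beta-catenin, and secreted antagonists such as the SFRPs sequester the ligands. BMP ligands signal through Smad proteins and promote epidermis, while Chordin and Noggin bind them outside the cell. FGFs act through receptor tyrosine kinases and induce their own inhibitors, the Sprouty proteins. Notch receptors respond to Delta and Jagged ligands on neighbouring cells, activate Hes and Hey repressors, and in the Xenopus epidermis limit how many cells become multiciliated cells or ionocytes. Hedgehog signals end in the Gli transcription factors.

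The libraries held 17054150 to 47407319 read pairs on genes, the deepest being CoMo replicate 2. Levels are given as CPM, read counts scaled to the normalized size of each library. Levels are compared between libraries for the same gene only, since CPM is not divided by gene length. The test covered 19372 genes that had a read in 3 or more of the 4 libraries, and 3196 of them were called, that is, had an adjusted p under 0.05. The morpholinos block translation, so the targeted transcripts need not fall: suv420h1 had 109 and 123 CPM in CoMo against 89.3 and 82.4 CPM in H1H2Mo, which did not pass the test, while kmt5c (suv4-20h2) rose from 47.7 and 58.2 to 147 and 171 CPM. The 12 epidermal marker genes examined summed to 5497 and 5540 CPM in CoMo and to 3789 and 2869 CPM in H1H2Mo. None of the 12 was at 0 in all libraries. Of them 5 were called (41.7%, against 39.4% of all tested genes that carry a name), all lower. These 5 (grhl2, itln1, krt12, krt19 and tp63) stand in the published list for this contrast, and the uncalled ones do not. The 7 neural markers went both ways, elavl3, ncam1, nrp1, rax and tubb3 being called lower and zic1 and zic2 higher, and all 7 stand in the published list for this contrast. Their sum was 184 CPM in CoMo replicate 1 and 51.2, 57.8 and 37.4 CPM in CoMo replicate 2 and the H1H2Mo libraries, zic1 and zic2 making up 26.2 and 24.1 CPM of it in H1H2Mo replicate 1. The 5 mesoderm markers also went both ways (median log2 fold change 0.60): nkx2-5, which makes up most of their sum, was called lower (288 and 335 CPM, then 50.3 and 36.9 CPM), vegt was called higher (7.86 and 12.3 CPM, then 57.5 and 39.6 CPM), and eomes, foxc1 and tbx1 were not called. The mesoderm markers summed to 298, 357, 118 and 79.4 CPM, the 5 neural crest markers to 124, 193, 83.4 and 70.0 CPM and the 3 endoderm markers to 2.32, 4.90, 18.7 and 4.35 CPM, in the order CoMo 1, CoMo 2, H1H2Mo 1 and H1H2Mo 2, sox10 (neural crest) being at 0 in both H1H2Mo libraries. Of the neural crest markers snai1 and snai2 were called, both lower, and of the endoderm markers none. nkx2-5, vegt and snai2 stand in the published list for this contrast, and snai1 does not. The part of these marker levels in the results below was not tested. In bulk explants, fewer cells of a type and less RNA per cell cannot be told apart.

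All 69 genes passed the filter on low counts, and 27 were called, 14 being lower in H1H2Mo and 13 higher. This is 39.1% of them. Over all genes tested 16.5% were called, 10.7% lower and 5.83% higher, but among the 6391 tested genes that carry a name the share was 39.4% (26.4% lower, 13% higher), so the share called among the pathway genes was close to that of named genes in general. Names were taken from lists ordered by p, and 17 of the 69 genes stand in the part at hand of the list for this same contrast. All 17 were called, 10 lower and 7 higher, as were 98.9% of the 1984 tested genes of that list (71% lower, 27.9% higher), and nothing is read from that. Of the other 52 genes, named only in lists for other comparisons of the study, 10 were called (19.2%), 4 lower and 6 higher, against 12.6% of the 4407 tested genes so named (6.33% lower, 6.26% higher). The median log2 fold change was 0.54 over the 69 genes, -0.14 over the tested genes that carry a name and 0.05 over all genes tested.

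The 4 libraries gave groups that did not overlap for 44 of the 69 genes, 23 with H1H2Mo above CoMo and 21 below. Over all genes tested 59.5% did not overlap, and among named genes 72.6%. The groups stayed apart for all 17 genes of the list for this contrast, as for 99.5% of that list, and for 27 of the other 52, against 60.4% of all genes so named. By pathway, 9 of 18 Wnt, 4 of 16 BMP, 4 of 11 FGF, 7 of 16 Notch and 1 of 4 Hedgehog genes were called, and 2 of the 4 genes outside the pathways. Calls in both directions occurred in the Wnt, BMP, FGF and Notch groups.

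**Figure D1:**
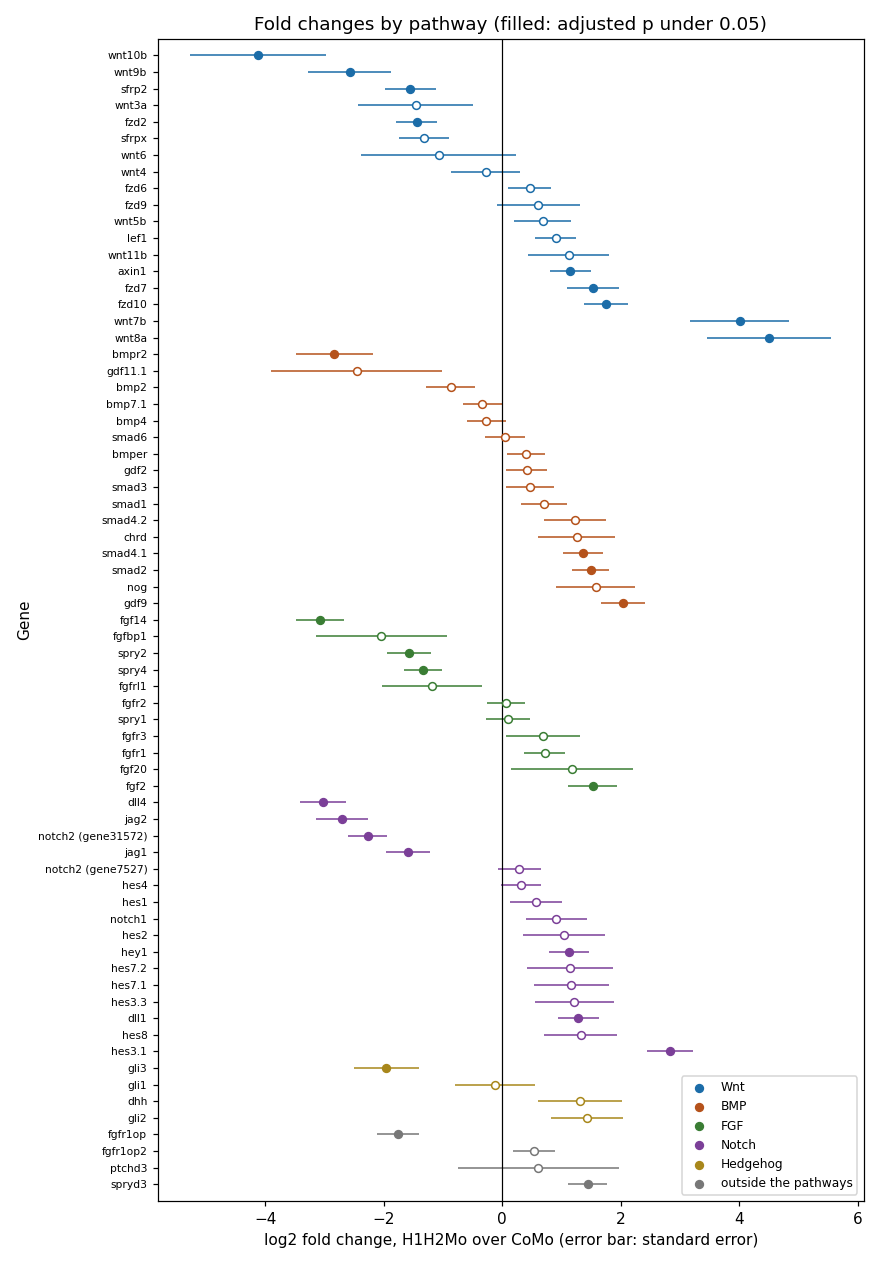
Log2 fold change of each of the 69 genes (x axis, H1H2Mo over CoMo) with its standard error as the bar, one row per gene, coloured by pathway. Filled points are the 27 called genes, and open points the 42 that were not called. They run from -4.12 for wnt10b to 4.51 for wnt8a, and every pathway holds genes on both sides of 0.

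Among the Notch genes, the ligands were split. dll4, jag1 and jag2 fell in H1H2Mo while dll1 rose, so that all 4 ligands were called. All 4 stand in the list for this contrast, so their calls are a description. dll4 (gene5688, chromosome 8), a Delta ligand, had 30.2 and 27.3 CPM in CoMo against 3.17 and 3.90 CPM in H1H2Mo. Both H1H2Mo libraries were thus far below both CoMo libraries and close to each other, and the level was 8.13-fold lower (log2 fold change -3.02, standard error 0.39, adjusted p = 0.00028). jag2 (gene26555, chromosome 8), a Jagged ligand, had 12.6 and 13.6 CPM in CoMo against 2.02 and 2.01 CPM in H1H2Mo. The replicates nearly coincided in each condition, with log2 fold change -2.70 ± 0.44 (SE) and adjusted p = 0.0013. jag1 (gene29768, chromosome 5), the other Jagged ligand listed, had 61.0 and 51.7 CPM in CoMo against 13.2 and 24.3 CPM in H1H2Mo, with log2 fold change -1.59 ± 0.37 (SE) and adjusted p = 0.011. Here the H1H2Mo libraries differed more from each other than the CoMo libraries did, yet the groups stayed apart.

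dll1 (gene8065, chromosome 5) is the Delta ligand known from the precursors of multiciliated cells and ionocytes in the Xenopus epidermis. It had 188 and 196 CPM in CoMo against 426 and 508 CPM in H1H2Mo. Both H1H2Mo libraries were above both CoMo libraries, with a 2.43-fold higher level (log2 fold change 1.28, standard error 0.34, adjusted p = 0.023). When any single library was omitted, the log2 fold change of dll1 stayed between 1.16 and 1.41 and that of dll4 between -3.17 and -2.87.

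Of the 3 identifiers named as Notch receptors, 1 was called. notch2 (gene31572, chromosome 4) had 124 and 114 CPM in CoMo against 21.4 and 28 CPM in H1H2Mo. It was 4.83-fold lower, with no overlap of the groups (log2 fold change -2.27, standard error 0.33, adjusted p = 0.00063). It too stands in the list for this contrast. A second identifier carries the same name (gene7527, chromosome 3) and had 95.3 and 165 CPM in CoMo against 180 and 138 CPM in H1H2Mo, with log2 fold change 0.29 ± 0.36 (SE) and adjusted p = 0.65. The RefSeq annotation of the assembly UCB_Xtro_10.0 has notch2 on chromosome 4 and no gene of that name on chromosome 3, so which gene the second identifier holds is uncertain. The identifier named notch1 (gene25244) is placed on chromosome 2 in the lists but RefSeq has notch1 on chromosome 8, and its name is uncertain for the same reason. It had 132 and 308 CPM in CoMo against 622 and 207 CPM in H1H2Mo, so that H1H2Mo replicate 2 lay between the CoMo libraries (log2 fold change 0.91, standard error 0.52, adjusted p = 0.26). Without H1H2Mo replicate 1 its value was -0.08, and without H1H2Mo replicate 2 it was 1.51.

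The 9 Hes and Hey genes encode transcriptional repressors, a family that includes the direct targets of Notch. All 9 fold changes lay above 0 (median 1.14), also under both other normalizations, but only hes3.1 and hey1 rose by the test. hes3.1 (gene49, chromosome 7; listed by RefSeq under the symbol hes5.10) had 9.26 and 12.3 CPM in CoMo against 97.8 and 55.8 CPM in H1H2Mo. The lower of the H1H2Mo libraries was still well above both CoMo libraries, and the level was 7.11-fold higher (log2 fold change 2.83, standard error 0.39, adjusted p = 0.00041). hes3.1 stands in the list for this contrast. hey1 (gene2966, chromosome 6), not in the list for this contrast, had 15.5 and 21.2 CPM in CoMo against 37.9 and 42.1 CPM in H1H2Mo. Both H1H2Mo libraries were higher, with log2 fold change 1.12 ± 0.34 (SE) and adjusted p = 0.039.

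For the other 7 Hes genes the groups overlapped, and for 6 of them a single H1H2Mo library was high while the other was not. H1H2Mo replicate 1 was the high one for hes1 (126 CPM, against 45.6 in replicate 2), hes2 (25.0 against 3.07), hes7.1 (11.9 against 4.02) and hes7.2 (8 against 1.45). Their CoMo levels were 44.4 and 71.5 CPM for hes1, 4.75 and 8.83 for hes2, 5.48 and 1.73 for hes7.1, and 1.22 and 3.01 for hes7.2. Replicate 2 was the high one for hes3.3, with 125 CPM against 15.2, and for hes8, with 90.2 CPM against 13.1. In CoMo these genes had 21.9 and 38 CPM (hes3.3) and 17.6 and 23.6 CPM (hes8), so replicate 1 was below both. hes4 stayed within a narrow range, from 29.1 to 46.8 CPM. Without H1H2Mo replicate 1, 6 of the 9 genes were above 0 and the median was 0.19. Without H1H2Mo replicate 2, 7 of the 9 were above 0 and the median was 1.13. For the 6 genes with a single high H1H2Mo library, that library was thus not the same throughout, while hes3.1 and hey1 were higher in both.

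**Figure D2:**
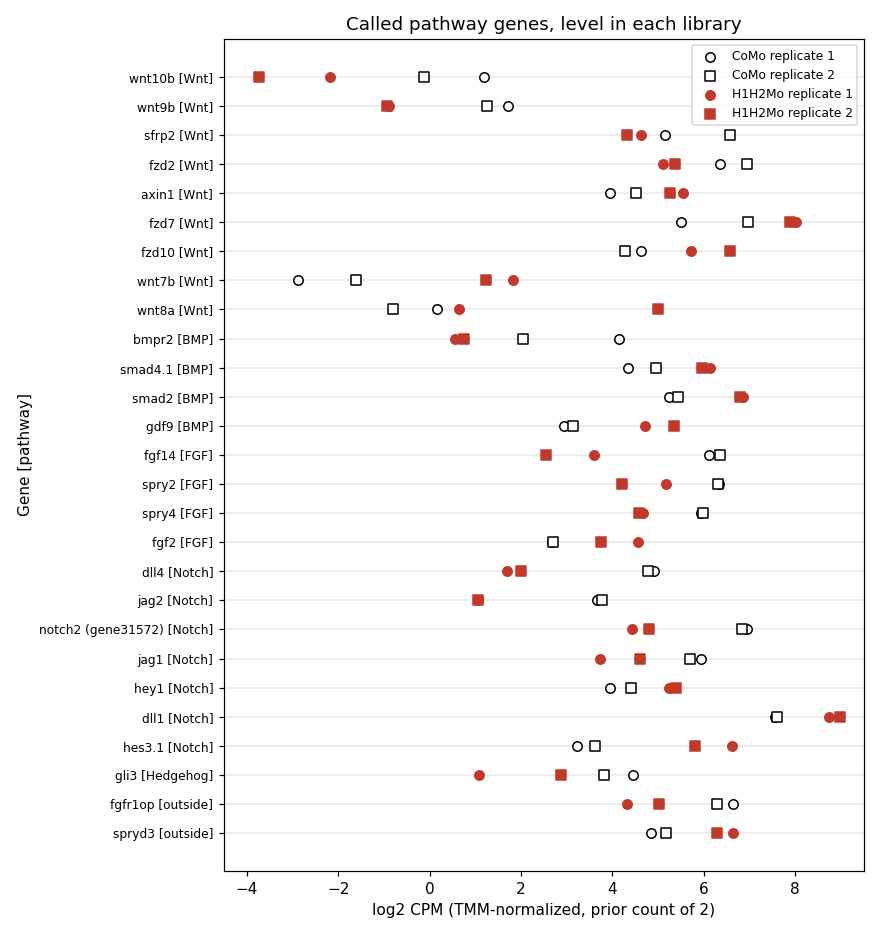
Level of each of the 27 called genes in each library (x axis, log2 CPM with a prior count of 2), one row per gene with its pathway in brackets. Open black symbols are the CoMo and filled red symbols the H1H2Mo libraries, circles for replicate 1 and squares for replicate 2. dll4, jag2, notch2 and spry4 show tight replicates, while the H1H2Mo libraries lie far apart for wnt8a (1.48 and 32.0 CPM).

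Among the Wnt genes, 5 rose and 4 fell, and both ligands and receptors changed in either direction. Of the 9 ligands, wnt7b and wnt8a rose and wnt9b and wnt10b fell, all from few reads. wnt7b (gene27900, scaffold_336) had 0.0609 and 0.250 CPM in CoMo, or 1 and 11 reads, and 3.49 and 2.29 CPM in H1H2Mo. It was near the limit of detection in CoMo and present in both H1H2Mo libraries (log2 fold change 4.0, standard error 0.83, adjusted p = 0.0056). The value was 3.53 without CoMo replicate 1 and 5.45 without CoMo replicate 2. wnt9b (gene23831, chromosome 10) had 3.23 and 2.30 CPM in CoMo against 0.468 and 0.446 CPM in H1H2Mo, with log2 fold change -2.58 ± 0.70 (SE) and adjusted p = 0.024. wnt10b (gene1728, chromosome 2) had 2.19 and 0.842 CPM in CoMo, which is 36 and 37 reads, and 4 reads and 0 reads in H1H2Mo. The fitted log2 difference of -4.12 (standard error 1.15, adjusted p = 0.027) rests on these few reads, and without H1H2Mo replicate 2 it was -3.31. The levels of wnt9b and wnt10b in the H1H2Mo libraries did not reach those of CoMo.

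wnt8a (gene6, chromosome 3), a ligand of the ventrolateral mesoderm in the Xenopus gastrula, had 1.04 and 0.501 CPM in CoMo against 1.48 and 32.0 CPM in H1H2Mo. It was called (log2 fold change 4.51, standard error 1.05, adjusted p = 0.011), but only H1H2Mo replicate 2 stood far above CoMo. Without that library the log2 fold change was 1.00 and the call was lost. The 5 other ligands were not called. wnt11b was higher in both H1H2Mo libraries (1.1 and 0.820 CPM, then 1.58 and 2.57 CPM) and wnt3a lower in both (0.609 and 0.615 CPM, then 0.216 and 0.223 CPM). For wnt4, wnt5b and wnt6 the conditions overlapped. wnt5b had 25.2 CPM in H1H2Mo replicate 2 and 8.54 CPM in replicate 1, against 8.41 and 12.5 CPM in CoMo.

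The Frizzled receptors fzd7 and fzd10 rose and fzd2 fell. fzd7 (gene3254, chromosome 9) had 45.2 and 126 CPM in CoMo against 259 and 237 CPM in H1H2Mo. The H1H2Mo libraries lay closer to each other than the CoMo libraries did (log2 fold change 1.53, standard error 0.44, adjusted p = 0.031). The value was 1.00 without CoMo replicate 1 and 2.47 without CoMo replicate 2. fzd10 (gene8512, chromosome 1) had 24.7 and 19.3 CPM in CoMo against 52.9 and 95.5 CPM in H1H2Mo, with log2 fold change 1.76 ± 0.37 (SE) and adjusted p = 0.0061. fzd2 (gene4709, chromosome 10) had 82.1 and 123 CPM in CoMo against 34.2 and 41.2 CPM in H1H2Mo, with log2 fold change -1.44 ± 0.34 (SE) and adjusted p = 0.011. fzd2, fzd10 and wnt7b are the Wnt genes in the list for this contrast. fzd6, with 303 and 294 CPM in CoMo against 324 and 499 CPM in H1H2Mo, was not called (log2 fold change 0.46, adjusted p = 0.43), nor was fzd9, at 0.914 to 3.57 CPM.

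Downstream and outside the cell, axin1 rose and sfrp2 fell. axin1 (gene18511, chromosome 9), a scaffold of the complex that degrades beta-catenin, had 15.4 and 23.0 CPM in CoMo against 47.0 and 38.4 CPM in H1H2Mo. Its H1H2Mo levels were about alike, with log2 fold change 1.15 ± 0.35 (SE) and adjusted p = 0.039. sfrp2 (gene1861, chromosome 1), a secreted antagonist, had 35.6 and 95.4 CPM in CoMo against 24.7 and 20.0 CPM in H1H2Mo, with log2 fold change -1.55 ± 0.43 (SE) and adjusted p = 0.027. Much of this came from CoMo replicate 2, and without it the value was -0.65 and the call was lost. sfrpx, of the same family, moved in the same direction in both H1H2Mo libraries (29.4 and 21.1 CPM, then 13.8 and 6.47 CPM) at an adjusted p of 0.051, just outside the threshold, and was called under 6 of the 9 alternatives that keep all 4 libraries. lef1, a transcription factor that acts with beta-catenin, had 18.9 and 19.7 CPM in CoMo against 28 and 44 CPM in H1H2Mo and was not called (log2 fold change 0.90, adjusted p = 0.10).

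Among the genes grouped as BMP, 3 rose (gdf9, smad2 and smad4.1) and 1 fell (bmpr2). The group includes Smads that are not of the BMP branch alone. The ligand genes bmp2, bmp4 and bmp7.1 were not called. bmp4 (gene6812, chromosome 8), the main epidermis-inducing ligand of the ectoderm, had 167 and 191 CPM in CoMo against 171 and 126 CPM in H1H2Mo, with log2 fold change -0.27 ± 0.33 (SE) and adjusted p = 0.64. bmp7.1 had 231 and 223 CPM in CoMo against 195 and 165 CPM in H1H2Mo (log2 fold change -0.34, standard error 0.33, adjusted p = 0.54). bmp2 had 13.0 and 25.2 CPM in CoMo against 12.4 and 8.65 CPM in H1H2Mo (log2 fold change -0.87, adjusted p = 0.18). All 3 fold changes lay below 0 and none passed the test. gdf2 had 19.3 to 33.5 CPM, with overlapping groups, and gdf11.1 had 9 reads at most in any library.

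The receptor gene bmpr2 and the ligand gene gdf9 were called, and both stand in the list for this contrast. gdf9 (gene6304, chromosome 3), known in mammals as a factor secreted by the oocyte, had 7.62 and 8.68 CPM in CoMo against 26.1 and 41.0 CPM in H1H2Mo. It was 4.11-fold higher with no overlap (log2 fold change 2.04, standard error 0.38, adjusted p = 0.0028). bmpr2 (gene25180, chromosome 9), a type II BMP receptor, had 17.7 and 4.05 CPM in CoMo against 1.40 and 1.62 CPM in H1H2Mo. CoMo replicate 1 was far above the other 3 libraries, as it was for the neural markers elavl3, ncam1, nrp1 and tubb3. The rest of the neural markers did not share this: rax differed less between the CoMo libraries (7.01 and 3.98 CPM), and zic1 and zic2 were lowest in CoMo replicate 1. The part of these markers in the result was not tested. With all 4 libraries bmpr2 was 7.13-fold lower (log2 fold change -2.83, standard error 0.65, adjusted p = 0.0099). Without CoMo replicate 1 it was -1.40 and not called, and without CoMo replicate 2 it was -3.54.

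The 6 Smad genes all had fold changes above 0 with 4 libraries (median 0.97), and 2 rose by the test. Without CoMo replicate 1 or without H1H2Mo replicate 1, 5 of the 6 were above 0. smad2 (gene5635, chromosome 1), which transduces Nodal and Activin signals, had 37.9 and 43.1 CPM in CoMo against 116 and 112 CPM in H1H2Mo. The replicates were close in both conditions, with a 2.81-fold higher level (log2 fold change 1.49, standard error 0.32, adjusted p = 0.0066), and smad2 is the Smad in the list for this contrast. smad4.1 (gene1551, chromosome 1), a copy of the Smad shared by both branches of the family, had 20.3 and 31.0 CPM in CoMo against 70.4 and 62.1 CPM in H1H2Mo, with log2 fold change 1.36 ± 0.34 (SE) and adjusted p = 0.016. Its paralog smad4.2 had 3.29 and 2.82 CPM in CoMo against 10.01 and 4.18 CPM in H1H2Mo and was not called (log2 fold change 1.22, adjusted p = 0.14). Reads that map to several places count for no gene here, so any reads that related copies have in common are lost to both. Whether the smad4 or Hes genes lost reads in this way was not examined.

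smad1, the Smad of the BMP branch, had 361 and 498 CPM in CoMo against 546 and 859 CPM in H1H2Mo. Both H1H2Mo libraries were higher, but the difference did not pass the test (log2 fold change 0.71, standard error 0.39, adjusted p = 0.24). smad3 behaved alike at a lower count, with 6.21 and 8.61 CPM, then 11.3 and 9.31 CPM. smad6, an inhibitory Smad, overlapped between the conditions at 184 to 237 CPM (log2 fold change 0.04, adjusted p = 0.95), and its sign turned when CoMo replicate 1 or H1H2Mo replicate 1 was left out.

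The genes grouped as BMP include chrd, nog and bmper, which encode secreted proteins that bind BMPs. None of these was called, and for chrd and nog the H1H2Mo libraries disagreed. chrd (Chordin) had 5.60 and 8.01 CPM in CoMo, 28.3 CPM in H1H2Mo replicate 1 and 4.18 CPM in replicate 2. nog (Noggin) had 1.40 and 1.48 CPM in CoMo, 6.81 CPM in H1H2Mo replicate 1 and 1.78 CPM in replicate 2. Both genes were thus clearly raised in H1H2Mo replicate 1 only, while replicate 2 stayed near CoMo. bmper had 49.4 to 81.0 CPM, its highest level being that of H1H2Mo replicate 2.

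Among the FGF genes, 3 fell and 1 rose, and none of the 4 receptor genes was called. The Sprouty genes spry2 and spry4, feedback inhibitors that FGF signalling itself induces, fell together. spry4 (gene29575, chromosome 3) had 61.7 and 63.2 CPM in CoMo against 25.4 and 23.9 CPM in H1H2Mo. The replicates of each condition nearly coincided, and the log2 fold change stayed between -1.37 and -1.29 with any library left out (-1.34 with all 4, standard error 0.32, adjusted p = 0.012). spry2 (gene2711, chromosome 2) had 81.2 and 79.8 CPM in CoMo against 35.9 and 18.3 CPM in H1H2Mo, with log2 fold change -1.57 ± 0.37 (SE) and adjusted p = 0.012. spry1, of the same family, overlapped, with 32.8 and 47.2 CPM in CoMo against 55.5 and 30.2 CPM in H1H2Mo (log2 fold change 0.10, standard error 0.37, adjusted p = 0.89).

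fgf14 (gene20863, chromosome 2) belongs to the FGF-homologous factors, which stay inside the cell and in mammals modulate sodium channels. It had 69.1 and 82.0 CPM in CoMo against 12.0 and 5.80 CPM in H1H2Mo. This was the FGF gene with the lowest fold change, 8.43-fold lower (log2 fold change -3.08, standard error 0.41, adjusted p = 0.00034). The value was -3.69 without H1H2Mo replicate 1 and -2.64 without H1H2Mo replicate 2. fgf14, spry2 and spry4 stand in the list for this contrast. fgf2 (gene28594, chromosome 1), a secreted FGF ligand, rose from 6.34 and 6.44 CPM to 23.4 and 13.4 CPM (log2 fold change 1.53, standard error 0.41, adjusted p = 0.023). Its levels in CoMo were alike and both H1H2Mo libraries lay above them. At this gene 26.7% of the reads of either strand lay on the opposite strand, and the counts used take the gene's own strand only. The opposite strand held 87 and 169 reads in CoMo, beside 104 and 283 on the gene's own strand. In H1H2Mo it held 126 and 84 reads, beside 650 and 240, so the opposite share was larger in CoMo.

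The receptors fgfr1 (20.8 and 30.9 CPM, then 47.2 and 37.9 CPM) and fgfr2 (93.5 and 89.8 CPM, then 109 and 81.8 CPM) were not called, with log2 fold changes of 0.72 (standard error 0.34, adjusted p = 0.18) and 0.06 (standard error 0.32, adjusted p = 0.93). fgfr1 was higher in both H1H2Mo libraries, and fgfr2 overlapped. fgfr3, fgfrl1, fgf20 and fgfbp1 had at most 5.91 CPM in any library and standard errors of 0.62 to 1.1, and were not called. For fgfr3 and fgf20 the conditions overlapped. Both H1H2Mo libraries were lower for fgfrl1 (0.975 and 1.55 CPM, then 0.864 and 0.223 CPM) and fgfbp1 (0.853 and 0.387 CPM, then 0.216 and 0.0558 CPM).

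Of the 4 Hedgehog genes, gli3 fell and the others were not called. gli3 (gene25892, chromosome 6), a Gli factor known as the main repressor form in the absence of Hedgehog, had 21.7 and 14.0 CPM in CoMo against 2.05 and 7.25 CPM in H1H2Mo. Both H1H2Mo libraries were lower but differed 3.53-fold from each other (log2 fold change -1.95, standard error 0.54, adjusted p = 0.027). The value was -3.11 without H1H2Mo replicate 2 and -1.29, not called, without H1H2Mo replicate 1. gli2 had 3.11 and 4.30 CPM in CoMo against 16.5 and 3.51 CPM in H1H2Mo (log2 fold change 1.43, adjusted p = 0.14). The ligand dhh had 1.34 and 3.85 CPM in CoMo against 10.9 and 2.18 CPM in H1H2Mo (log2 fold change 1.31, adjusted p = 0.24). Both were raised in H1H2Mo replicate 1 alone, and their values without it were -0.07 and -0.27. gli1, a target of the pathway, had 1.17 to 2.13 CPM in all 4 libraries.

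**Figure D3:**
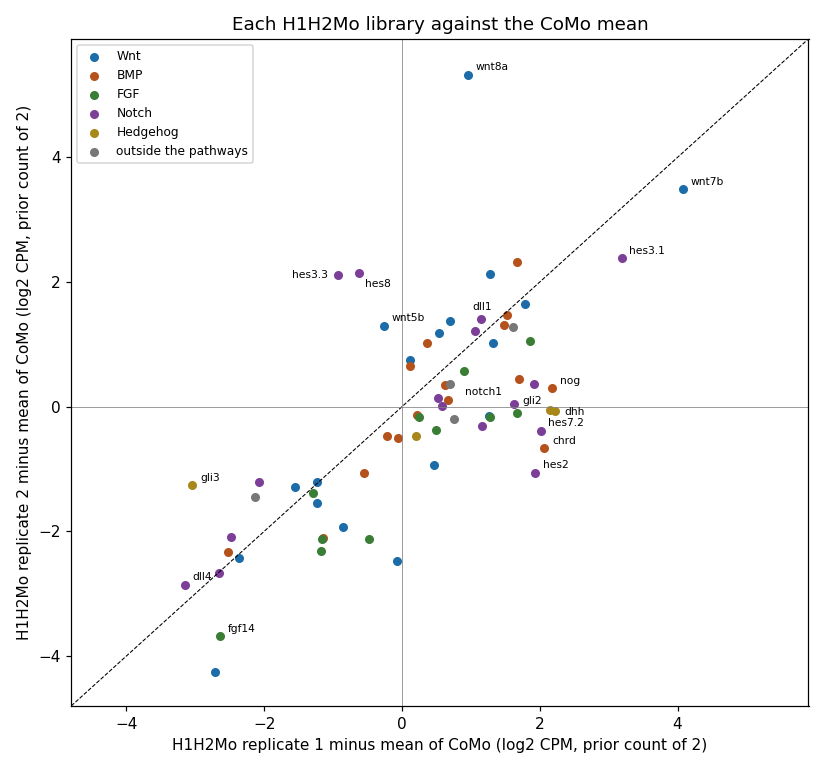
Difference of H1H2Mo replicate 1 (x axis) and of H1H2Mo replicate 2 (y axis) from the mean of the CoMo libraries, in log2 CPM with a prior count of 2, for each of the 69 genes, coloured by pathway. On the dashed line both libraries moved alike. dll4, fgf14, hes3.1 and wnt7b moved the same way in both, chrd, hes2, gli2 and dhh lie to the right because only replicate 1 was high, and wnt8a, hes3.3 and hes8 lie at the top because only replicate 2 was high.

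The H1H2Mo libraries thus differed from each other for many of these genes. Among the 57 genes whose mean reached 50 reads, 20 (35.1%) differed more than 2-fold between the H1H2Mo libraries, against 16% of all 12536 genes with as many reads. Between the CoMo libraries it was 9 of 57 (15.8%), against 7.55% of all. H1H2Mo replicate 1 was the higher in 15 of the 20 genes and replicate 2 in 5. Over all genes that differed so, replicate 1 was the higher in 1283 and replicate 2 in 724 of 2007. The 15 genes came from all 5 pathways: hes1, hes2, hes7.1, hes7.2 and the identifier named notch1 (Notch), chrd, nog and smad4.2 (BMP), dhh and gli2 (Hedgehog), fzd9, wnt4 and sfrpx (Wnt), and fgfr3 and fgf14 (FGF). Higher in replicate 2 were wnt8a (21.7-fold), hes3.3 (8.24-fold), hes8 (6.86-fold), gli3 and wnt5b. The endoderm marker sox17a was also higher in replicate 1, with 17.7 CPM in H1H2Mo replicate 1, 3.18 CPM in replicate 2 and 1.77 and 4.39 CPM in CoMo. Its part in these levels was not tested.

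When single libraries were omitted, more of the calls were lost without a CoMo library than without an H1H2Mo library. Without CoMo replicate 1, 6 of the 27 genes remained called (dll4, hes3.1, notch2, fgf14, jag2 and sfrp2). Without CoMo replicate 2, 6 also remained (dll4, hes3.1, notch2, fgf14, fzd7 and bmpr2). Without H1H2Mo replicate 1, 23 of the 27 remained, axin1, fgf2 and gli3 not being called and wnt10b no longer tested, and without H1H2Mo replicate 2 all but wnt8a remained. dll4, hes3.1, notch2 (gene31572) and fgf14 were called under all 13 alternatives run, leave-one-out included, and no called gene turned its direction in any of them. dll4, hes3.1, notch2 (gene31572) and fgf14 all stand in the list for this contrast, so that their calls are a description. In the leave-one-out fits a condition with a single library is assumed to vary like the other. The spread thus comes from the other condition alone, and a call can be lost while the level hardly moves. For spry4 the log2 fold change was -1.34 without CoMo replicate 1 and -1.31 without CoMo replicate 2, against -1.34 with all 4 libraries. That of bmpr2 moved more, from -2.83 to -1.40 without CoMo replicate 1.

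**Figure D4:**
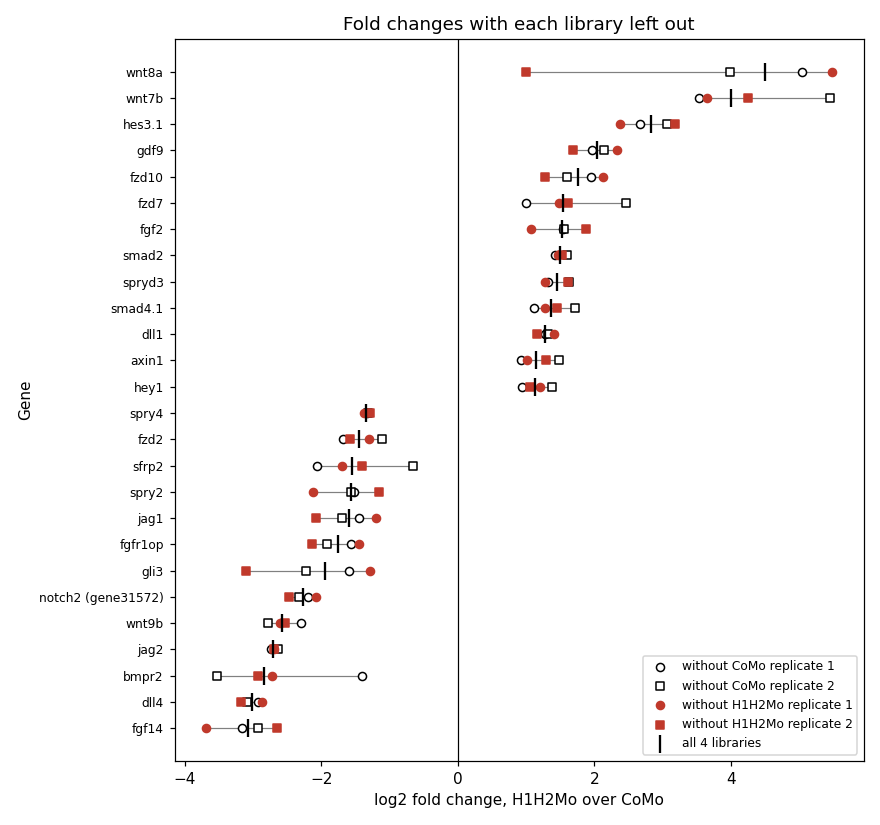
Log2 fold change (x axis, H1H2Mo over CoMo) of 26 called genes with all 4 libraries (vertical tick) and with each library left out in turn (symbols), wnt10b being left out because it was tested in only 1 of these fits. Every symbol is on the same side of 0 as its tick. The range is narrow for spry4 (-1.37 to -1.29) and jag2 (-2.74 to -2.63), and wide for wnt8a (1.00 to 5.49), bmpr2 (-3.54 to -1.40) and gli3 (-3.11 to -1.29).

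Other genes of the 5 pathways that carry a name were read from the same test. Of these 103 genes, 44 were called, 21 lower and 23 higher, with a median log2 fold change of 0.34. The share, 42.7%, was near the 39.4% of all named genes tested. The 34 that stand in the list for this contrast were all called, and of the other 69, 10 were called, against 12.6% of all genes named only in other lists. By pathway the calls were 9 of 29 for Wnt, 13 of 29 for BMP together with TGF-beta and Nodal, 7 of 17 for FGF, 9 of 16 for Notch and 6 of 12 for Hedgehog.

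In each pathway the called genes with the smallest p are named. For Wnt, prickle3 and ror2 fell. Of the 9 called Wnt genes outside the 69, 4 were lower and 5 higher, the latter being apc2, bcl9, lrp6, nlk and porcn. prickle3 had 50.3 and 52.2 CPM in CoMo against 6.34 and 3.40 CPM in H1H2Mo (log2 fold change -3.38, adjusted p = 0.00018), and ror2 had 69.1 and 62.3 CPM, then 15.9 and 19.1 CPM (-1.91, adjusted p = 0.0018). For TGF-beta, ltbp1, which holds latent TGF-beta in the matrix, and fstl1, a secreted follistatin-like protein, fell from 106 and 106 to 14.4 and 9.82 CPM and from 142 and 114 to 25.2 and 20.4 CPM. For FGF, il17rd, an inhibitor of FGF signalling in the membrane, rose from 7.80 and 6.31 to 30.0 and 26.8 CPM, while spred1, an inhibitor related to the Sproutys, fell from 67.0 and 62.6 to 21.6 and 19.2 CPM. The named inhibitors of FGF signalling therefore did not share a direction.

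For Notch, dtx4, of the Deltex family, fell from 23.0 and 26.2 to 5.19 and 8.25 CPM and maml1, a coactivator of Notch, rose from 31.7 and 40.0 to 106 and 102 CPM. maml3, of the same family as maml1, fell (15.5 and 14.8 CPM, then 4.18 and 4.96 CPM), and so did neurl1 (67.6 and 73.5 CPM, then 17.8 and 29.8 CPM) and neurl1b (102 and 120 CPM, then 42.3 and 44.6 CPM), of the Neuralized family of ubiquitin ligases for Notch ligands. maml3, neurl1 and neurl1b were chosen after their values were seen. neurl4, named for the same family, overlapped between the conditions (20.9 and 45.4 CPM, then 72.5 and 40.2 CPM) and was not called. Of the 9 called genes of this pathway, 5 were lower and 4 higher, the latter being maml1, ncstn, adam17 and numb. For Hedgehog, efcab7 (83.3 and 68.2 CPM, then 12.5 and 15.1 CPM) and evc (35.9 and 35.2 CPM, then 6.77 and 9.48 CPM) fell. Together with evc2 and iqce, chosen after their values were seen, these are the components of the Evc complex at the base of the primary cilium, and all 4 were called lower, with log2 fold changes from -2.46 to -1.53. All 4 stand in the list for this contrast, so that their calls are a description. Of the 6 called Hedgehog genes outside the 69, 4 were lower and 2 higher, the latter being boc and prkaca.

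The Ventx genes, homeobox targets of BMP signalling in Xenopus that were also chosen after their values were seen, were all higher in both H1H2Mo libraries, and 3 of the 5 were called. ventx1.1 rose from 13.8 and 11.6 to 64.6 and 60.3 CPM, ventx1.2 from 1.95 and 1.02 to 12.4 and 8.92 CPM, and ventx3.2 from 0.426 and 0.159 to 4.97 and 8.14 CPM. The 3 that rose stand in the list for this contrast. ventx2.1 (40.9 and 27.6 CPM, then 63.3 and 71.2 CPM) and ventx2.2 (24.2 and 23.0 CPM, then 46.7 and 39.2 CPM), which do not, were not called at adjusted p of 0.065 and 0.091. msx1, msx2 and id2, other known targets of BMP signalling and chosen in the same way, were not called, with log2 fold changes of 0.54, -0.17 and 0.24.

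Outside the pathways, fgfr1op (gene7850, chromosome 5), which encodes a centrosomal protein, fell from 99.4 and 78.2 CPM to 20.1 and 32.3 CPM (log2 fold change -1.76, standard error 0.35, adjusted p = 0.0047). spryd3 (gene16133, chromosome 2), named for its SPRY domain, which is not the Sprouty domain, rose from 28.9 and 36.3 CPM to 99.2 and 78.5 CPM (log2 fold change 1.45, standard error 0.33, adjusted p = 0.0096). Neither is counted with a pathway above, though both stand in the list for this contrast. fgfr1op2 had 13.9 to 24.2 CPM and ptchd3 at most 5 reads in any library, and neither was called.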

How the data were processed

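RNA was extracted from X. tropicalis ACs, depleted of ribosomal RNA and made into directional libraries. The authors aligned the reads to the Xenbase v9.1 genome with STAR 2.7.1a. The deposited values are the raw gene counts of that run, unstranded and by strand. The reverse-strand counts were used here, since 97.5% to 98.2% of stranded reads lay there. Reads without a gene (36.7% to 45.4% of the read pairs, unmapped and multimapping ones included) were left out. Genes having a read in 75% or more of the libraries were tested in edgeR 4.0.16 (R 4.3.3) by TMM normalization and the quasi-likelihood test, two-sided, with Benjamini-Hochberg adjustment over all genes tested and a threshold of 0.05. Standard errors (SE) are the size of the fold change on the log2 scale divided by the root of F. The script was tested on simulated data. DESeq2 1.42.0 was an alternative.

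Gene names and chromosomes come from the parts at hand of the study's published gene lists, whose fold changes and p-values were not used. The identifiers carry no sequence here. RefSeq (UCB_Xtro_10.0) matched the symbol or a synonym of 67 of the 69 genes, and the chromosome agreed for 58 of the 60 matched ones that the lists place on a chromosome. Every called gene is given with its values, and in each pathway also the 2 uncalled genes with most reads. Of the other pathway genes, the 2 called ones with the smallest p were named, with exceptions stated. The genes and lists were chosen with earlier results of these data known.

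The labels number 2 replicates per condition, while the study's text speaks of 3 biological replicates. Whether the 2 are separate clutches is not given in the sources used here, so p-values measure the spread between these libraries, which limits the precision more than depth does. Alternatives were normalization by RLE or by the upper quartile, no filter or filterByExpr, unstranded counts, the replicate number as a block, thinning to equal depth, and leaving out each library.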

Additional observations from a re-analysis of the deposited data

Results flagged for a closer look

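The opposite-strand counts were not used in the comparison. At gdf11.1, a ligand gene with few reads, they held 18 reads in the H1H2Mo libraries (8 and 10) and 0 in each CoMo library, while its own strand held 5 and 9 reads in CoMo and 2 and 0 in H1H2Mo. This was singled out as a signal outside the main measurement that is above the level of the control libraries.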

How the results depend on the processing

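Of the 27 called genes, 26 were called under all 9 alternatives that keep the 4 libraries. The exception was hey1, with adjusted p = 0.053 under the replicate block (0.039 without it). sfrpx, not called at adjusted p = 0.051, was called with RLE normalization, DESeq2, no low-count filter, the replicate block, crossed pairs and thinning to equal depth. The deviations of samples that share a replicate number had a correlation of -0.13. With 2 libraries per condition the crossed pairs give the same value with the opposite sign, so it cannot tell whether the samples were paired. With the replicate block 3280 genes were called over all genes, against 3196, and 27 of the 69. Crossing the pairs, an alternative chosen after seeing the data, gave 4843 genes, 2013 of them higher (1130 without it), and 29 of the 69. Without the low-count filter 2 Hedgehog genes were called. Leaving out each library in turn, calls over all genes ranged from 542 to 3978 (lower 499 to 2268, higher 43 to 1710), those among the 69 from 6 to 36 (lower 4 to 14, higher 1 to 22) and those among other pathway genes from 8 to 58. Leaving out a CoMo library gave the low ends. In those fits the spread comes from the H1H2Mo libraries alone, and its part in this was not tested. By pathway the ranges were 1 to 10 for Wnt, 0 to 7 for BMP, 1 to 4 for FGF, 3 to 12 for Notch, 0 to 3 for Hedgehog and 0 to 2 outside the pathways. Some uncalled genes turned sign, with log2 values from -0.14 to 0.22 for smad6, -0.16 to 0.26 for fgfr2, -0.40 to 0.48 for spry1, -0.076 to 1.68 for notch1, -0.030 to 0.75 for notch2 (gene7527), -0.27 to 2.31 for dhh and -0.075 to 2.15 for gli2. With 2 libraries per condition, genes of few reads such as wnt10b are limited by depth.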
